A study of Mus musculus with 2 samples.

Results

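Cultured neural stem/progenitor cells (NSPCs) that carry PLIN2-GFP fell into 2 clusters in the authors' per-cell table, and the cells of cluster 1 were compared with those of cluster 0. The cluster number of each cell was read from that table, and each unnamed column of counts was matched to a cell by equal total count and equal number of genes detected. Cluster 1 held 149 of the 304 cells, 87 on plate 1 and 62 on plate 2, and cluster 0 held the other 155, 92 on plate 1 and 63 on plate 2. The NSPCs came from the subventricular zone of 6 to 8 week old male C57/Bl6 mice and were grown in N2 medium with EGF and FGF-2, which keeps them proliferating. They were infected with a retrovirus coding for a fusion of GFP with perilipin 2, a coat protein of lipid droplets (LDs), and kept as 1 stable line. Live cells, recognized by the dye Calcein Red, were gated on GFP, and those of the lowest 25% and of the highest 25% were sorted singly into wells of 2 plates, and are called low and high PLIN2-GFP NSPCs. Both categories carry the construct, neither received a treatment, and cells without the construct are not part of the comparison. Single-cell RNA sequencing followed SORT-seq, in which each well has a barcoded primer and each captured transcript a unique molecular identifier (UMI).

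LDs store neutral lipids and release fatty acids for oxidation and membrane synthesis. In the subventricular zone, stem cells share many transcripts with astrocytes, such as those of glutamate transporters. As the cells become transit amplifying progenitors and neuroblasts, these transcripts give way to proneural factors, Notch ligands and proteins of the growing neurite, and the translation machinery is known to be induced when quiescent stem cells are activated.

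The authors formed the clusters from the transcripts of these same cells, after the plate, the cell cycle scores, the mitochondrial share and the total count had been regressed out. A difference in transcript levels between the clusters is therefore given here as a description without a test. The GFP category took no part in the clustering and could be compared. Adding up the counts of all cells of one plate, category and cluster gave 8 sums of 172482 to 701309 UMIs from 13 to 64 cells each. Each plate and category thus gave a pair of sums, 1 for each cluster, and 4 pairs in all. The sums were scaled to library size (CPM) with TMM factors, and a difference is the log2(CPM + 10) of cluster 1 minus that of cluster 0. It understates the change of genes with low counts. Values are listed in the order low cells of plate 1, low cells of plate 2, high cells of plate 1 and high cells of plate 2. The plates hold cells of the same line, so any spread between sums may be technical and does not measure variation between independent cultures. An SD over the 4 pairs describes their spread and is not the error of a replicated comparison. The plates share 1 set of primers, and 59 barcodes held a kept cell on both plates.

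Most cells of cluster 0 were high and most cells of cluster 1 were low PLIN2-GFP NSPCs. On plate 1, 66.3% of the 92 cells of cluster 0 (95% exact binomial interval 55.7% to 75.8%) and 26.4% of the 87 cells of cluster 1 (17.6% to 37.0%) were high PLIN2-GFP NSPCs. On plate 2, these shares were 63.5% of 63 cells (50.4% to 75.3%) and 20.97% of 62 cells (11.7% to 33.2%). The intervals, which cover counting error only, did not overlap between the clusters on either plate. Cluster 0 exceeded cluster 1 by 39.9 points on plate 1 and by 42.5 points on plate 2, with a mean of 41.2 ± 1.88 (SD, n = 2 plates). A two-sided exact permutation test over the 4 shares gave p = 0.333, and with the plates kept paired p = 0.5, each the smallest p that 2 plates allow. The split was not complete, as 31 and 23 low cells lay in cluster 0 and 23 and 13 high cells in cluster 1 on plates 1 and 2. Among the cells in G1 phase, the mean difference was 39.1 points.

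**Figure D1:**
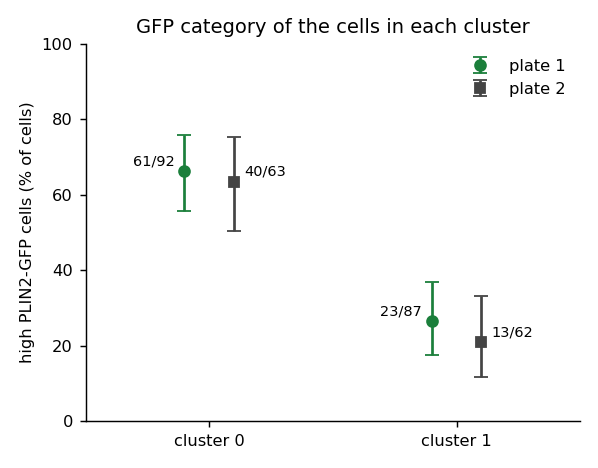
Share of high PLIN2-GFP NSPCs (% of cells, y axis) in cluster 0 and cluster 1 (x axis), with plate 1 as circles and plate 2 as squares, 95% exact binomial intervals as bars and the number of high cells of all cells beside each point. The shares lie at 66.3% and 63.5% in cluster 0 and at 26.4% and 20.97% in cluster 1.

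Cells of cluster 1 yielded more UMIs than cells of cluster 0 in every pair. The median number of UMIs per cell in cluster 0 was 6728, 10671, 9471 and 14539, and in cluster 1 it was 8532, 12212, 13698 and 15036. Cluster 1 was thus higher by 1804, 1541, 4227 and 497 UMIs. Within either cluster and plate, the high cells had more UMIs than the low cells, although cluster 1 holds mostly low cells. The median number of genes detected was higher in cluster 1 by 412.5, 193, 916 and 22 genes. The authors' doublet score had medians of 0.111, 0.131, 0.111 and 0.131 in cluster 0 and of 0.144, 0.156, 0.156 and 0.189 in cluster 1, higher in 4 of 4 pairs. The mitochondrial share differed by -0.698, -1.64, -0.044 and 0.331 percentage points, lower in cluster 1 in 3 of 4 pairs. The part of depth and of doublets in the differences below was not tested, but each cell was also thinned to 5000 UMIs, which left out 45 cells.

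The deposited cell cycle phases did not move with the cluster in 1 direction. The share of cells in G1 phase in cluster 0 was 51.6%, 52.2%, 41.0% and 37.5%, and in cluster 1 it was 51.6%, 38.8%, 30.4% and 38.5%. The share in G2/M phase was 32.3%, 21.7%, 32.8% and 30.0% in cluster 0 and 23.4%, 36.7%, 52.2% and 23.1% in cluster 1. Cluster 1 had the higher G2/M share in 2 pairs and the lower in the other 2. Of 52 measured G2/M genes, 0 were past the fold higher and 1 lower in cluster 1, *Aurkb*, a mitotic kinase, with a difference of -0.55 ± 0.34 (SD, n = 4 pairs), and their median was -0.43, 0.33, 0.04 and -0.81 over the pairs. Of 37 S phase genes, 0 were past the fold in either direction, which requires the same sign in 4 of 4 pairs. Their median was 0.40, -0.01, -0.31 and -0.46 over the pairs, so it changed sign between them.

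The position on the plate moved with the cluster. In the first 12 of the 24 columns of wells, 76.7% and 74.3% of low cells of plates 1 and 2 and 40.5% and 34.8% of high cells were in cluster 1. In columns 13 to 24, these shares were 59.6% and 62.2% of low and 17.0% and 16.7% of high cells. The share of cluster 1 was thus higher on the side of the first columns in both categories of both plates. Between the 8 rows of wells of the low cells it ranged from 33.3% to 83.3%, and between the 8 rows of the high cells from 9.52% to 43.8%. As 0 rows held both categories, rows and categories cannot be told apart. Within the columns 1 to 12, the difference in the share of high cells was 38.2 points, and within the columns 13 to 24 it was 45.4 points.

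A gene was counted as past the fold where its difference had the same sign in 4 of 4 pairs and a mean of at least 0.5 on the log2 scale. Of 6618 genes with a mean of at least 20 CPM, 122 (1.84%) were past the fold higher and 183 (2.77%) lower in cluster 1. With library sizes in place of TMM factors, the same count gave 87 higher and 247 lower, and the median difference of all genes in low cells of plate 1 went from 0.08 to -0.03. Of the 305 genes (4.61%) past the fold in either direction, 182 had under 200 UMIs over all cells and 48 had at least 500, 16 of them higher and 32 lower. When cells were thinned to 5000 UMIs, 245 genes were past the fold higher and 351 lower, of which 44 and 83 were among the 122 and 183. Thinning changed both the counts per cell and the cells used, and the part of each was not tested. The weight below is put on genes with many counts and on whole lists.

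Of all lists, the astroglial one had the most members past the fold lower in cluster 1. Of 23 measured astroglial and quiescent stem cell genes, 9 were past the fold lower and 2 higher, beside 2.77% and 1.84% of all genes, and 12 (52.2%) were lower in 4 of 4 pairs, beside 9.44% of all genes. Their median difference was -0.40, and it was -0.33, -0.59, -0.29 and -0.49 in the pairs. It stayed below 0 in every alternative run, from -0.53 in wells of columns 13 to 24 to -0.27 in wells of columns 1 to 12. Summed over the 31 genes of the list found in the table, the level was 9162, 8047, 8771 and 8220 CPM in cluster 0 and 7138, 6228, 6876 and 5547 CPM in cluster 1, so that the clusters did not overlap.

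*Slc4a4*, a sodium bicarbonate cotransporter (chromosome 5 of GRCm38, 88886818 to 89239653, plus strand), had 373.6, 484.0, 423.1 and 447.2 CPM in cluster 0 and 202.1, 138.3, 343.3 and 256.6 CPM in cluster 1, with a difference of -0.92 ± 0.60 (SD, n = 4 pairs). All 4 sums of cluster 1 were below all 4 of cluster 0. *Slc1a3*, the glutamate transporter GLAST and a marker of these NSPCs (chromosome 15, 8634124 to 8710764, minus strand), had 1431, 1668, 1608 and 1679 CPM in cluster 0 and 1137, 1102, 1090 and 992.0 CPM in cluster 1. It was the member of the list with the most UMIs, 4727, and its difference of -0.56 ± 0.18 held in each pair without overlap. Further members past the fold lower were *Slc1a2* (-0.77), the other glial glutamate transporter, *Apoe* (-0.70), a lipid carrier, *Aldoc* (-0.58), an aldolase, *Mlc1* (-0.54), an astrocyte membrane protein, *Atp1b2* (-0.53), a subunit of the sodium pump, and *Ttyh1* (-0.51), a chloride channel.

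The 2 members that went the other way were *Id2* and *Hopx*. *Id2*, an inhibitor of basic helix-loop-helix factors (chromosome 12, 25093799 to 25097140, minus strand), stood at 21.2, 26.5, 28.1 and 26.2 CPM in cluster 0 and at 69.8, 125.8, 35.8 and 57.0 CPM in cluster 1, a difference of 1.10 ± 0.69. *Hopx*, a homeodomain-only protein of quiescent stem cells, had a difference of 0.83 ± 0.53 on 132 UMIs. *Sox9*, a glial transcription factor, was at 0.23 ± 0.33, higher in 2 of 4 pairs.

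Single cells of the clusters overlapped widely. The summed level of the astroglial genes in the median cell of cluster 0 was 8751, 7759, 8675 and 8804 CPM, and in the median cell of cluster 1 it was 5737, 5183, 6882 and 5288 CPM. The highest single cell of all, with 31231 CPM, was a low cell of plate 1 in cluster 1. The ranges of the clusters overlapped in all 4 pairs, and no cell was without these transcripts, the lowest having 2248 CPM.

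**Figure D2:**
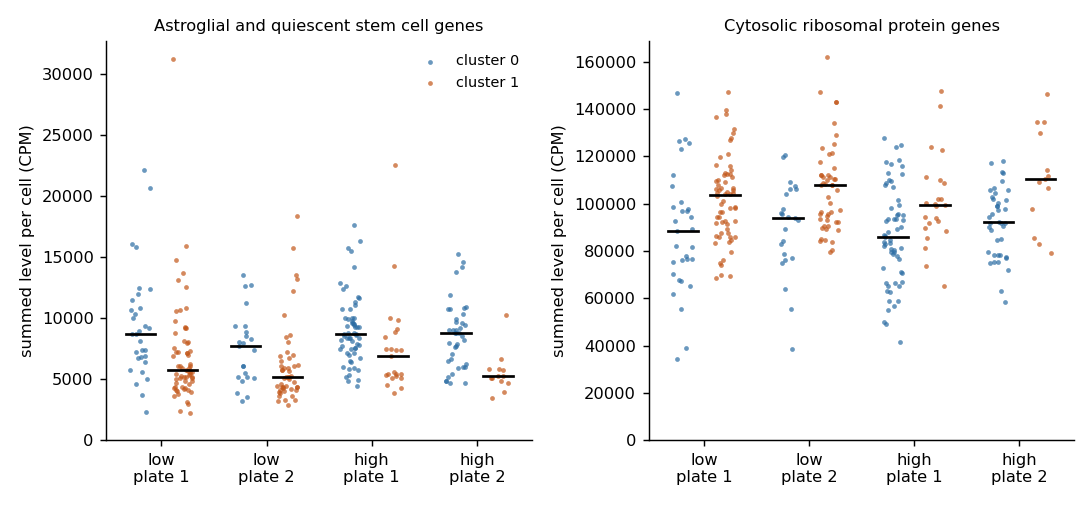
Summed level per cell, in CPM on the y axes, of astroglial and quiescent stem cell genes (left) and of cytosolic ribosomal protein genes (right), with 1 point per cell, cluster 0 in blue and cluster 1 in orange, split by category and plate on the x axes, and the median as a black line. The median of cluster 1 lies below that of cluster 0 on the left and above it on the right in each of the 4 pairs, with overlapping points.

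Genes that the study lists as different between the GFP categories were among those lower in cluster 1, although the study chose them on these same cells, so they are no independent evidence. Of the 9 listed as higher in high PLIN2-GFP NSPCs, 5 were past the fold lower in cluster 1, beside 2.77% of all genes. Lower in 4 of 4 pairs were 7 of the 9, beside 9.44% of all genes. *Igfbp2*, a secreted protein that binds insulin-like growth factors (chromosome 1, 72824503 to 72852474, plus strand), had 1630, 1429, 1715 and 1465 CPM in cluster 0 and 995.6, 643.4, 1108 and 1123 CPM in cluster 1. Its levels in cluster 1 lay below those in cluster 0 also among the high cells alone, and its difference was -0.71 ± 0.32 (SD, n = 4 pairs). *Car2*, a carbonic anhydrase (chromosome 3, 14886273 to 14900770, plus strand), had 284.5, 325.2, 343.0 and 378.4 CPM in cluster 0 and 185.5, 129.4, 220.9 and 136.8 CPM in cluster 1, a difference of -0.97 ± 0.43. *Chst2*, a sulfotransferase of glycan chains, differed by -0.90 ± 0.32, *Aldoc* by -0.58 ± 0.19 and *Trim9*, a ubiquitin ligase of neurons, by -0.50 ± 0.29. Of the 6 genes listed as lower in high cells, 0 were past the fold in either direction. In 4 of 4 pairs, 2 of the 6 were higher in cluster 1 and 0 lower, beside 9.75% and 9.44% of all genes.

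*Plin2*, which encodes the tagged protein itself (chromosome 4, 86648386 to 86670060, minus strand), did not separate the clusters. It had 38.2, 18.9, 71.7 and 45.9 CPM in cluster 0 and 16.5, 24.8, 83.6 and 45.6 CPM in cluster 1, and its difference was -0.10 ± 0.52 on 152 UMIs in all. It was higher in cluster 1 in 2 pairs and lower in the other 2, while its level in the high cells was above that in the low cells in both clusters of both plates. The log2 fold change of high over low was 0.97 ± 0.43 (SE) in cluster 0 (adjusted p = 0.897 by edgeR) and 1.71 ± 0.42 (SE) in cluster 1 (adjusted p = 0.145 by edgeR). The construct carries *Plin2* coding sequence too, and reads from it and from the endogenous gene cannot be told apart. Of 11 measured LD genes, 9 had a mean below 0 and 2 above. Their median was -0.10, and 0 were lower in 4 of 4 pairs. Past the fold was 1 of them, beside 4.61% of all genes. This gene, *G0s2*, an inhibitor of the LD lipase ATGL, was higher in cluster 1 by 0.64 ± 0.14 on 74 UMIs. *Fdps*, a farnesyl diphosphate synthase of the sterol pathway, had 208.0, 105.9, 149.0 and 127.8 CPM in cluster 0 and 266.3, 228.6, 253.8 and 262.3 CPM in cluster 1, a difference of 0.77 ± 0.32. It was the single gene past the fold of 32 sterol and fatty acid synthesis genes, beside 4.61% of all genes. Of 18 fatty acid oxidation genes, 0 were past the fold and 7 (38.9%) were lower in 4 of 4 pairs, beside 9.44% of all genes, with a median of -0.24 that ranged from -0.32 to -0.11 over the alternatives.

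The NSPC markers did not move together. Besides *Slc1a3*, *Hes1*, a repressor downstream of Notch (chromosome 16, 30064384 to 30067796, plus strand), was past the fold lower, with 203.8, 155.0, 184.1 and 190.0 CPM in cluster 0 and 124.9, 106.3, 80.6 and 125.4 CPM in cluster 1 (-0.71 ± 0.27). *Vim*, a filament protein, was higher in cluster 1 in 4 of 4 pairs by 0.29 ± 0.11, under the fold. *Nes*, another filament protein, was at 0.26 ± 0.46, and *Fabp7*, a fatty acid binding protein of radial glia, at -0.13 ± 0.18. Their median over 9 markers was -0.08.

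Measured genes of the neuronal lineage lay on the other side. The list has 30 genes, of which 22 were found in the counts and 15 reached a mean of 20 CPM. Markers such as *Dcx* and *Tubb3* were not among these 15. Of 15 measured members, 5 were past the fold higher and 0 lower, beside 1.84% and 2.77% of all genes, all 15 had a mean above 0 and 9 (60.0%) were higher in 4 of 4 pairs, beside 9.75% of all genes. Their median was 0.33, with 0.45, 0.31, 0.17 and 0.27 in the pairs. It was 0.17 without plate 2 and 0.38 without plate 1. It was 0.49 in wells of columns 1 to 12 and 0.09 in wells of columns 13 to 24, and the part of the position in it was not tested.

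*Basp1*, a membrane protein of growth cones (chromosome 15, 25363277 to 25413764, minus strand), had 80.7, 208.0, 115.3 and 95.01 CPM in cluster 0 and 323.3, 402.3, 167.2 and 171.0 CPM in cluster 1. The difference was 1.02 ± 0.60, and it was largest in low cells of plate 1, at 1.88. *Gap43*, another growth cone protein (chromosome 16, 42248442 to 42340651, minus strand), had 80.7, 208.0, 129.3 and 90.1 CPM in cluster 0 and 227.8, 242.8, 197.0 and 176.7 CPM in cluster 1, a difference of 0.77 ± 0.50. In wells of columns 13 to 24, *Gap43* differed by -0.20, with the opposite sign. *Stmn1*, which destabilizes microtubules and was the best counted of the 5 with 2406 UMIs, had 450.0, 620.2, 527.1 and 666.7 CPM in cluster 0 and 725.6, 1053, 692.7 and 758.3 CPM in cluster 1, a difference of 0.50 ± 0.26. *Nrep* (0.54 ± 0.48) and *Meis2* (0.50 ± 0.22), a homeobox factor of neuroblasts, were the others. *Sox4*, a proneural factor, was higher in 4 of 4 pairs by 0.45 ± 0.21, under the fold. *Map2*, a marker of neurons with 1631 UMIs, was at 0.05 ± 0.21 and higher in 2 of 4 pairs.

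Among the activated progenitor genes, 2 of 8 were past the fold higher and 0 lower, beside 1.84% and 2.77% of all genes, and the median was 0.16. Of the 8, 7 had a mean above 0 and 1, *Ccnd2*, below. The summed level of the 13 genes of the list found in the table was on the other side, with 3885, 3437, 3834 and 3488 CPM in cluster 0 and 3444, 3235, 3012 and 3261 CPM in cluster 1, lower in 4 of 4 pairs. *Ccnd2* alone made up most of each of these sums, so the sum follows this gene and not the list as a whole. *Dll1*, a ligand of Notch (chromosome 17, 15367354 to 15376872, minus strand), had 34.0, 34.0, 16.9 and 34.4 CPM in cluster 0 and 106.5, 101.0, 44.8 and 62.7 CPM in cluster 1. Each sum of cluster 1 was above each of cluster 0, and the difference was 1.12 ± 0.32 on 191 UMIs. *Btg2*, an antiproliferative gene of neurogenic divisions, differed by 0.55 ± 0.37. *Ccnd2*, a cyclin of G1 phase, went the other way, at 2666, 2329, 2607 and 2177 CPM in cluster 0 and 1903, 1549, 1732 and 1887 CPM in cluster 1, a difference of -0.47 ± 0.18 that was just under the fold. *Ccnd2* was named after its values were seen, since it has more UMIs (7249) than the other members of the list.

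Ribosomal protein genes were higher in cluster 1 almost without exception, but by little. All 81 measured genes of the cytosolic ribosome had a mean difference above 0, and 68 (84.0%) were higher in 4 of 4 pairs, beside 9.75% of all genes. The median was 0.29, with 0.37, 0.30, 0.20 and 0.25 in the pairs. Past the fold were 2 of them, beside 1.84% of all genes, *Rpl30* of the large subunit (0.68 ± 0.28) and *Rps29* of the small subunit (0.54 ± 0.17). The lowest was *Rps14*, at 0.06 ± 0.09. The summed level of the 85 genes found in the table was 82380, 88240, 83130 and 89550 CPM in cluster 0 and 105400, 110700, 95420 and 106700 CPM in cluster 1, without overlap. In the authors' per-cell table, the median share of ribosomal protein counts was higher in cluster 1 by 1.72, 1.26, 1.23 and 1.95 percentage points. The median of the list was 0.24 in thinned cells and with library sizes, and it was 0.41 in wells of columns 1 to 12 and 0.12 in those of columns 13 to 24. As ribosomal proteins have many near-identical pseudogenes, of which *Rps2-ps7*, *Gm8520* and *Rpl10-ps3* were past the fold higher too, counts of single members are uncertain.

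Proteasome and translation factor genes moved the same way with smaller medians. Of 34 proteasome genes, 31 had a mean above 0, 10 (29.4%) were higher in 4 of 4 pairs and 0 lower, beside 9.75% and 9.44% of all genes, and the median was 0.20. *Psmc2*, an ATPase of the regulatory particle, was the 1 past the fold, with 42.5, 34.0, 64.7 and 45.9 CPM in cluster 0 and 68.0, 70.9, 95.5 and 85.5 CPM in cluster 1 (0.68 ± 0.18). Of 46 translation factors, 37 had a mean above 0 and 15 (32.6%) were higher in 4 of 4 pairs, beside 9.75% of all genes, with a median of 0.15 and *Eif3k*, a subunit of initiation factor eIF3, past the fold (0.64 ± 0.37).

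Most of the remaining lists showed no uniform direction over the pairs. Their counts past the fold stand beside 1.84% of all genes higher and 2.77% lower. Nuclear genes of the respiratory chain had a median of -0.07, with 0 of 78 past the fold, and mitochondrially encoded mRNAs one of 0.06, with 0 of 13. Respiratory chain genes also had 12 members lower in 4 of 4 pairs, which is 15.4% of them, beside 9.44% of all genes. Of 23 heat shock and chaperone genes, 13 had a mean above 0 and 10 below, and the chaperonin subunit *Cct7* was the 1 past the fold (0.51 ± 0.31). Among the 23, 7 (30.4%) were higher in 4 of 4 pairs and 1 (4.35%) lower, beside 9.75% and 9.44% of all genes. Of 13 unfolded protein and amino acid response genes, 7 had a mean above 0 and 6 below, and *Asns*, an asparagine synthetase, was the 1 past the fold (0.74 ± 0.33). Of 16 hypoxia genes, 2 were past the fold higher, *Ero1l*, an oxidase of protein folding in the endoplasmic reticulum, and *Pdk1*, a kinase of pyruvate dehydrogenase (0.53 ± 0.29), while the list's median went from -0.14 in high cells of plate 2 to 0.39 in low cells of plate 2. Oligodendrocyte lineage genes held 1 gene past the fold on each side among 9 measured. Lower in 4 of 4 pairs were 3 (33.3%) of the 9 and higher 1 (11.1%), beside 9.44% and 9.75% of all genes. *Bcas1*, a gene of early myelinating cells, was higher by 0.76 ± 0.21 on 109 UMIs, and *Cspg5*, a proteoglycan, differed by -0.66 ± 0.22. *Ptprz1* and *Bcan*, with 2249 and 1056 UMIs, were also lower in 4 of 4 pairs, at -0.40 ± 0.30 and -0.29 ± 0.10. *Olig1* and *Olig2*, the factors that define this lineage, differed by -0.06 ± 0.20 and 0.03 ± 0.18. Of 15 immediate early genes, *Btg2* was past the fold higher and *Dusp1*, a phosphatase, lower (-0.52 ± 0.06). The 5 measured interferon response genes had a median below 0 in each pair, at -0.15, -0.32, -0.45 and -0.05. Of these 5, 2 (40.0%) were lower in 4 of 4 pairs, beside 9.44% of all genes. The 1 past the fold, *Ifitm3*, an interferon-induced membrane protein, was lower by a mean of -0.60 ± 0.79, with -1.75 in low cells of plate 2 and -0.05 in high cells of plate 2.

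**Figure D3:**
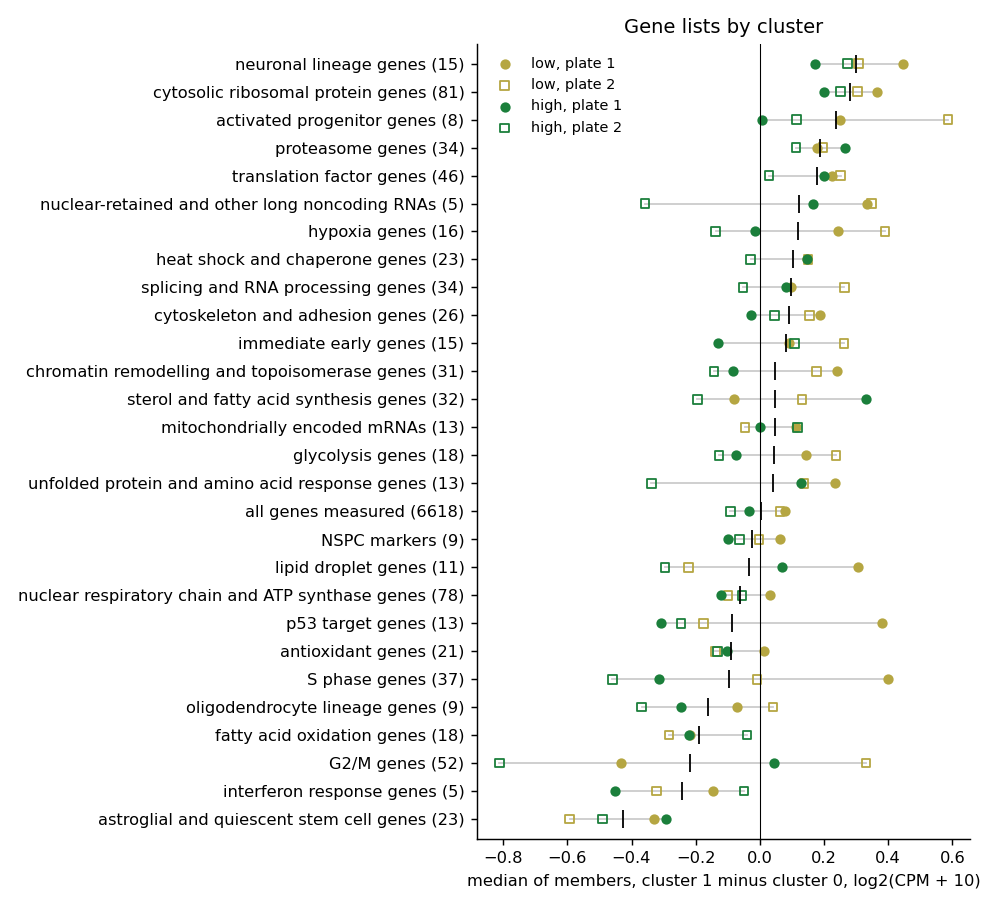
Median difference of the members of each list between cluster 1 and cluster 0 in log2(CPM + 10) (x axis), in low cells (ochre) and high cells (green) of plate 1 (circles) and plate 2 (squares), with the mean of the 4 pairs as a black line and the number of measured genes in brackets. Neuronal lineage, activated progenitor, ribosomal protein, proteasome and translation factor genes lie right of 0 in 4 of 4 pairs. Astroglial, fatty acid oxidation and interferon response genes lie left of 0 in 4 of 4 pairs, while the cell cycle lists spread over both sides.

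Microglia, vascular and ependymal transcripts were few in either cluster. Microglia genes summed to 0 to 14.1 CPM per sum, with 1 of 13 genes found in the table, vascular and fibroblast genes to 0 to 32.8 CPM and ependymal genes to 21.2 to 45.9 CPM. None of these 3 lists had a member above the minimum of 20 CPM. Oligodendrocyte lineage genes, in contrast, summed to 4410 to 5392 CPM and neuronal lineage genes to 2955 to 4706 CPM per sum.

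The 12 leading genes in each direction were mostly genes with few counts, as 19 of the 24 had under 200 UMIs. Higher in cluster 1, after *Dll1*, *Id2* and *Basp1* described above, were *Ero1l* at 1.22 ± 0.58 (SD, n = 4 pairs), the pseudogene *Rps2-ps7* at 1.12 ± 0.88 and *Nol4l* at 1.02 ± 0.80. *Dusp10*, a phosphatase of stress-activated kinases, *Prps1*, which makes the ribose phosphate of nucleotides, *Klf13*, a zinc finger factor, and *Map1b*, a microtubule protein of growing axons, had differences of 0.94, 0.91, 0.90 and 0.84. *Gm8520*, a pseudogene, and *Knstrn*, a spindle protein, followed at 0.86 and 0.83. *Dusp10* had 12.7 CPM in low cells of plate 1 and 7.03 CPM in high cells of plate 1 in cluster 0, which is a handful of UMIs.

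Among those lower in cluster 1 was *Selenop*, which carries selenium (chromosome 15, 3268547 to 3280508, plus strand), with 114.6, 139.9, 188.3 and 150.7 CPM in cluster 0 and 88.2, 33.7, 74.6 and 51.3 CPM in cluster 1, a difference of -1.19 ± 0.61. *Abat*, which degrades the transmitter GABA, and *Ntm*, an adhesion molecule, had differences of -0.99 ± 0.30 and -1.01 ± 0.36, with 102 and 184 UMIs. *Tmx2* (-1.35), *Nck2* (-1.22), an adaptor of receptor kinases, *Myo16* (-1.20), a myosin, *Nxpe4* (-1.20), *Sel1l3* (-1.09), *Ndrg4* (-1.06) and *Uhmk1* (-1.05), a kinase, had 78 to 145 UMIs each. *Gm28661*, an unprocessed pseudogene on chromosome 1 (24614885 to 24615565, minus strand), had 772.7, 907.6, 344.4 and 535.7 CPM in cluster 0 and 101.0, 257.0, 0 and 353.5 CPM in cluster 1. Its reads may be shared with near-identical copies and the value is uncertain.

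**Figure D4:**
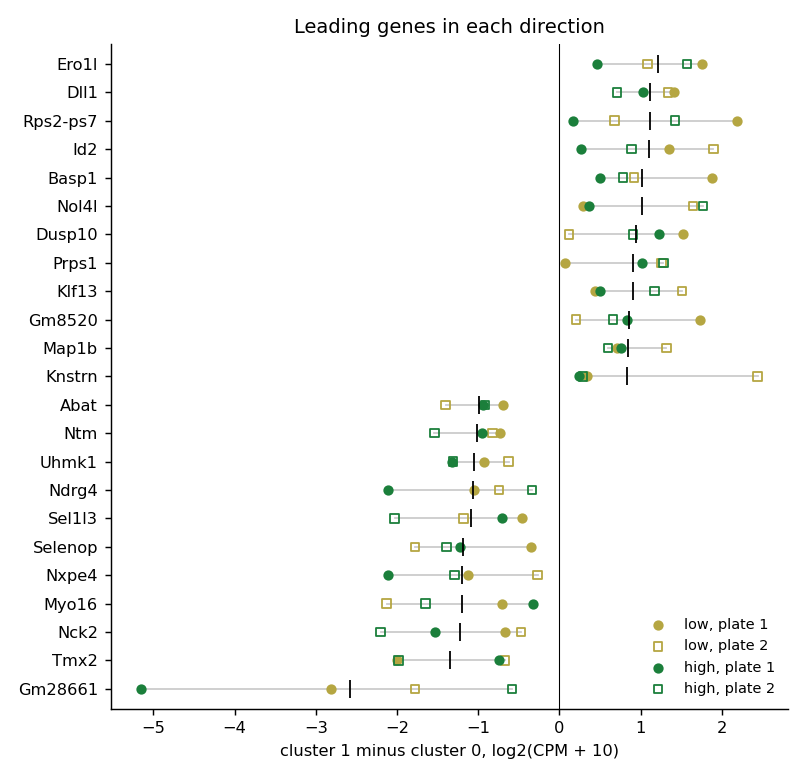
Difference between cluster 1 and cluster 0 in log2(CPM + 10) (x axis) for leading genes in each direction, in low cells (ochre) and high cells (green) of plate 1 (circles) and plate 2 (squares), with the mean as a black line. *Dll1* and *Abat* lie close together over the 4 pairs, whereas *Gm28661* and *Knstrn* spread widely.

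Genes with at least 500 UMIs were also looked at for themselves, a choice made after the values were seen. Of the 32 lower in cluster 1, *Slc6a11* (-0.65), a transporter of GABA, and *Grm5* (-0.81), a glutamate receptor of glia and neurons, were outside the lists. *Igfbp4*, another binding protein of insulin-like growth factors, was at -0.91, *Sparc*, a matrix protein of glia, at -0.75, *Acsbg1*, an acyl-CoA synthetase, at -0.64, and *Gstm1*, a glutathione transferase, at -0.61. Of the 16 higher, *Ppp1r14b* (0.60), an inhibitor of a phosphatase, *Tcf12* (0.58), a partner of proneural factors, *Hnrnpa1* (0.55), a splicing factor, *Lgals1* (0.54), a galectin, and *Chd7* (0.51), a chromatin remodeller, were among those not yet named.

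High and low PLIN2-GFP NSPCs were next compared within each cluster, in 1 fit of edgeR's quasi-likelihood model to the 8 sums, blocked by plate, with Benjamini-Hochberg adjusted p-values over 6618 genes. Within cluster 0, 2 genes (0.0302%) had an adjusted p under 0.1, and 160 higher and 199 lower genes had an unadjusted p under 0.05. Within cluster 1, 1 gene (0.0151%) was called, and 222 and 209 genes had an unadjusted p under 0.05. DESeq2 with the block and edgeR without it called 0 in either cluster, and limma voom called 6 and 14.

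The gene called in cluster 1 was *Malat1*, a nuclear long noncoding RNA (chromosome 19, 5795690 to 5802672, minus strand). In cluster 1 it had 3439 and 3421 CPM in low and 2242 and 1938 CPM in high cells of plates 1 and 2, and in cluster 0 3210 and 4069 CPM in low and 3699 and 3260 CPM in high cells. Its log2 fold change of high over low was -0.63 ± 0.11 (SE) in cluster 1 (adjusted p = 0.0107 by edgeR) and -0.14 ± 0.11 (SE) in cluster 0 (adjusted p = 0.946 by edgeR). The difference between these was -0.49 (adjusted p = 0.916 by edgeR), so the effect was not shown to differ between clusters. Over the alternatives, its adjusted p in cluster 1 ranged from 2.5e-13 to 0.811. It was over 0.1 without the high sum of cluster 0 of plate 1 (0.124) or plate 2 (0.172), without the low sum of cluster 1 of plate 1 (0.157), without the block, by DESeq2 (0.293) and in G1 cells (0.25).

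In cluster 0, *Gm11518*, a processed pseudogene of uncertain counts, was lower in high cells (log2 fold change -1.06, adjusted p = 0.0943 by edgeR). *Hist1h2ap*, a replication-dependent histone gene (chromosome 13, 21833026 to 21833507, minus strand), had 369.4 and 1218 CPM in low and 1528 and 1579 CPM in high cells of plates 1 and 2. Its log2 fold change in cluster 0 was 1.01 ± 0.18 (SE) (adjusted p = 0.0240 by edgeR). Without the low sum of plate 1 it was 0.53 (adjusted p = 0.441 by edgeR) and without the high sum of plate 1 0.57 (adjusted p = 1.0 by edgeR), and the alternatives together gave adjusted p-values from 1.14e-16 to 1.0. In cells in G1 phase it was 0.15 (adjusted p = 0.996 by edgeR). The share of cells in S phase in cluster 0 was 16.1% and 26.1% in low and 26.2% and 32.5% in high cells.

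*Hist1h2ap* was also the 1 gene (0.0151%) whose difference between clusters was itself different in high and low cells. In cluster 1 it had 828.4 and 1253 CPM in low and 522.5 and 992.0 CPM in high cells. Cluster 1 was above cluster 0 in low cells of plate 1 (1.14) and close to it in low cells of plate 2 (0.04). It was below cluster 0 in high cells of both plates (-1.53 and -0.67). The interaction was -1.43 ± 0.26 (SE) (adjusted p = 0.0289 by edgeR). It was -0.96 (adjusted p = 0.177 by edgeR) without the low sum and -0.998 (adjusted p = 0.999 by edgeR) without the high sum of cluster 0 of plate 1, and -0.06 (adjusted p = 1.0 by edgeR) in G1 cells, within a range of adjusted p from 1.9e-17 to 1.0. The share of cells in S phase in cluster 1 was 25.0% and 24.5% in low and 17.4% and 38.5% in high cells. No other gene was called in the interaction, with 178 and 164 genes at an unadjusted p under 0.05.

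Averaged over the clusters, 15 genes (0.227%) differed between high and low cells, 3 higher and 12 lower, by edgeR. When the clusters were not split, the same 6618 genes gave 161 calls (2.43%), 70 higher and 91 lower. The 2 fits have 3 and 1 residual degrees of freedom, so the counts are not strictly comparable, and since the clusters were made from these genes, keeping the cluster fixed takes out part of any category difference by construction. *Plin2* had a log2 fold change of 1.34 ± 0.30 (SE) when averaged over clusters (adjusted p = 0.0587 by edgeR) and of 1.39 ± 0.30 (SE) when they were not split. *Sox4* had -0.58 (adjusted p = 0.0117 by edgeR) and -0.78, the mitochondrial ribosomal RNA *mt-Rnr2* -0.36 (adjusted p = 0.00996 by edgeR) and -0.44, *Mt1*, a metallothionein, -0.41 (adjusted p = 0.0428 by edgeR) and -0.34, and *Basp1* -0.76 (adjusted p = 0.0631 by edgeR) and -1.25.

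The genes that the study lists as higher in high PLIN2-GFP NSPCs had smaller category differences once the cluster was held fixed. The median of these 9 genes was 0.18 averaged over the clusters and 0.39 without the split, and 0 and 6 of them were called. The study chose them on these same cells, whose transcripts also made the clusters, so a smaller difference was in part built in. It was not particular to them. Of the 70 genes called higher and 91 called lower without the split, 62 and 80 were also closer to 0 when averaged. The medians of these 70 and 91 genes were 0.42 and -0.40 averaged and 0.60 and -0.56 without the split. *Igfbp2* went from 0.49 to 0.25 (adjusted p = 0.545 by edgeR). Within cluster 0, its category difference was -0.02 ± 0.12 (SE, adjusted p = 0.993 by edgeR), and within cluster 1 it was 0.52 ± 0.13 (SE, adjusted p = 0.200 by edgeR), and the difference between these was not called (adjusted p = 0.916 by edgeR). *Car2* went from 0.62 to 0.24 and *Chst2* from 0.54 to 0.20. For the 6 genes listed as lower, the median was -0.28 and -0.36, and 3 and 5 were called. *mt-Rnr1*, the other mitochondrial ribosomal RNA, went from -0.32 to -0.25, a smaller step than those of *Car2* and *Chst2*.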

How the data were processed

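Single cells of 2 plates were analysed. The authors assigned reads to GRCm38 with Salmon (alevin, per the labels; versions are not given in the sources used here), kept cells with doublet and mitochondrial filters, clustered them in Seurat, and deposited estimated counts (expected UMI counts) without normalization. Their per-cell table, as deposited, gives for each cell its total as an estimated count, its genes detected as a count, mitochondrial shares as a fraction and as a percent, a ribosomal fraction, doublet and cell cycle scores, phase, plate, category and cluster. All 304 columns were joined to cells, and mitochondrial percentages computed from the joined counts differ from the deposited ones by less than 1e-06. A list of barcodes was not used. The cluster column equals the deposited column for a resolution of 0.7 in all cells (0 differ).

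Estimated counts were summed per plate, category and cluster and rounded to whole numbers. R 4.3.3 with edgeR 4.0.16 (TMM, quasi-likelihood, plate as a block, 3 residual degrees of freedom, common dispersion 0.00678), limma 3.58.1 and DESeq2 1.42.0, and Python 3.11.15 with pandas 2.3.3 and scipy 1.17.1 were used. The edgeR fit was also run on simulated data with a larger dispersion and no plate effect, so that run does not give its error rate here. Standard errors were derived from the log2 fold change and the F statistic. The plate number pairs the sums, as they come from the same plate, and deviations of same-plate sums correlated at 0.117 to 0.319 over 6618 genes. Depth was 172482 to 701309 UMIs per sum.

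The members, the 33 gene lists and the tests were chosen with earlier results of these data known. Genes named are the 12 leading in each direction, at most 4 members past the fold per list, the study's category genes, *Plin2*, *Fabp7*, *Vim*, *Nes* and *Hes1*, and the called genes within clusters. Some of these genes are not reported here. Other genes are named where the text says so, or as members of a list described in full. Coordinates are those of GENCODE M21, in which 14729 of 15046 names were found. Alternatives were other normalizations, pseudocounts, filters and fold limits, thinned cells, cells in G1 phase, under 20% mitochondrial counts or averaged per cell, mitochondrially encoded genes left out, no block, DESeq2, limma voom and each sum or plate left out. The plates by column of wells, and the category difference averaged over clusters or not split, were added after seeing the data.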

Additional observations from a re-analysis of the deposited data

Results flagged for a closer look

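*Hist1h2ap*, a histone gene, was singled out because its difference between clusters was not the same in low and high PLIN2-GFP NSPCs, with an interaction of -1.43 on the log2 scale (adjusted p = 0.0289 over all genes, edgeR). On plates 1 and 2 the difference was 1.14 and 0.04 in low cells and -1.53 and -0.67 in high cells. The adjusted p ranged from 1.9e-17 to 1.0 over the alternatives, and in cells in G1 phase the interaction was -0.06. Groups of 2 plates allow no search for outlying samples.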

How the results depend on the processing

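The mean difference in the share of high PLIN2-GFP NSPCs was 39.1 points in G1 cells, 44.4 in cells of at least 5000 UMIs, 38.2 in wells of columns 1 to 12 and 45.4 in columns 13 to 24, and 39.9 to 42.5 without either plate. The 122 genes past the fold higher and 183 lower in cluster 1 became 245 and 351 in thinned cells, 243 and 330 with no filter beyond 1 count, 58 and 87 with a mean CPM of at least 50, 291 and 402 in G1 cells, and 6 and 11 with a mean difference of at least 1. There were 196 higher with log2(CPM + 1), 187 with the mean of per-cell CPM and 308 in wells of columns 1 to 12, and 437 lower in columns 13 to 24. Without plate 1 there were 401 higher and 558 lower genes, and without plate 2 421 and 376. Fewer cells, fewer counts or fewer pairs of sums enter several of these, and the cause was not tested. Wells of columns 1 to 12 gave 57.6% higher genes of all past the fold, columns 13 to 24 24.8% and plate 1 alone 52.8%, against 40.0%. *Gap43* was reversed in columns 13 to 24 (-0.20), and the median of the study's category genes was 0.051 in columns 1 to 12, against -0.095 in all wells. That median mixes 9 genes listed as higher with 6 listed as lower, so its sign has no clear reading. The number of calls between categories changed with the model. Without the replicate block, 0 genes were called within cluster 0, 0 within cluster 1 and 0 in the interaction, against 2, 1 and 1. DESeq2 called 0 in each, limma voom 6, 14 and 0, and edgeR with no filter beyond 1 count 7, 28 and 4. In G1 cells there were 1, 9 and 4. Within cluster 0, 1 gene was called without mitochondrially encoded genes, in thinned cells and at an adjusted p under 0.05. Within cluster 1 the count was 11 with library sizes, 6 with filterByExpr, 4 without mitochondrially encoded genes and 10 in thinned cells. Leaving out 1 sum gave 1 to 26 calls within cluster 0, 0 to 39 within cluster 1 and 0 to 8 in the interaction, with 26 and 39 without the high sum of cluster 1 of plate 2, which has 13 cells. The lone sum was then assumed to vary like the others. Averaged over clusters, 15 genes were called, and 161 with clusters not split. Leaving out a plate leaves 1 sum per group, and no test was made. Median differences below 0.1 could not be told from the shift of all genes, and *Plin2*, with 152 UMIs, is limited by depth.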

Other observations

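The per-cell table holds a second clustering, at a resolution of 0.8, which also has 2 clusters, of 158 and 146 cells, but divides the cells otherwise. Its clusters had 14.6% and 74.7% of cells in G1 phase and 57.0% and 3.43% in G2/M phase, and 44.3% and 45.9% were high PLIN2-GFP NSPCs. The 158 cells included 85 of cluster 1 and 73 of cluster 0 of the clustering described above, and the 146 cells included 64 and 82. The median number of UMIs per cell was 10705 and 10808.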
